A study of Mus musculus with 16 samples.

Results

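Histone-high LSK cells were the 10% of cells with the largest share of transcripts from replication-dependent histone genes, 384 of 3840 kept cells out of 6144 wells in 16 libraries. LSK cells are the Lin-Sca1+Kit+ cells of mouse bone marrow, the fraction that holds blood stem cells and multipotent progenitors. Fetal liver cells of Regnase-1-/-Regnase-3-/- donors (CD45.2) and of control donors (CD45.1) were mixed 1:1 and given to lethally irradiated CD45.1/CD45.2 mice. The strain was C57BL/6J, and LSK cells were sorted 4 weeks after the transplant, 1 to a well. Regnase-1 and Regnase-3 are RNases that degrade mRNAs of immune and blood cells. LSK cells of the host that outlive irradiation are not told apart from donor cells either. The libraries are of mRNA 3′ ends, made by MARS-seq, which tags each molecule with a unique molecular identifier (UMI). The labels give no genotype, CD45 type or mouse for any library or well. Each group below may therefore hold cells of both donors in unknown parts, which cannot be told apart, and no knockout comparison was made. Kept cells had at least 1000 UMIs, under 20% mitochondrial UMIs and no listing as an empty well. They were ranked over all libraries by the share of their UMIs in genes named Hist1h, Hist2h, Hist3h or Hist4h. The comparison group, histone-low cells, was the 1920 cells ranked lowest. Pairs of classes from the same library were compared, and the values that chose the cells are given below as a description only.

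Replication-dependent histone genes supply the proteins that package newly made DNA. Core histones H2A, H2B, H3 and H4 form the nucleosome and linker histone H1 binds the DNA between nucleosomes. Their mRNAs accumulate in S phase, the time of DNA synthesis, and are degraded at its end. Most animal mRNAs end in a poly(A) tail, whereas these mRNAs end just after a short stem-loop, which stem-loop binding protein holds during processing, export and translation. Variant histones such as H2A.X and H3.3 are also made outside S phase, and most of their mRNAs are polyadenylated. Among blood progenitors, cells that divide pass through S phase and quiescent stem cells do not.

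The stem-loop and the bases before it are shown for 6 of the genes with the most UMIs in histone-high cells, all with a match. Hist1h1b (591 UMIs) and Hist1h1a (168 UMIs) had no match in their annotated transcripts and are not shown. Hist1h1d (150 UMIs) had a match and is not shown either. Which bases of these transcripts the reads covered was not tested. Each line gives 30 bases of the GENCODE M21 transcript (GRCm38), 5′ to 3′ on the sense strand, with the bases that matched the consensus of the histone stem-loop in capitals. All 6 genes lie in the histone cluster of chromosome 13.
Hist1h2ao: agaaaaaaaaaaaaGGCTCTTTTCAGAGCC
Hist1h2ap: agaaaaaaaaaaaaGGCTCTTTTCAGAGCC
Hist1h2ae: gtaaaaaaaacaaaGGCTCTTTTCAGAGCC
Hist1h1e: cccaacaacccaaaGGCTCTTTTCAGAGCC
Hist1h1c: ctaacaatccaaaaGGCTCTTTTCAGAGCC
Hist1h4d: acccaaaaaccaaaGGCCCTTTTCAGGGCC

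The consensus, searched on the sense strand only, was in the annotated transcripts of 44 of the 70 histone genes (62.9%) and in 66 of all 141767 transcripts (0.0466%). Some transcripts without a match, such as that of Hist1h2ak, are annotated over the reading frame alone. A stem-loop after the frame could not be found in these. Hist1h2ao (chr13:21810465-21810944, plus strand) and Hist1h2ap (chr13:21833026-21833507, minus strand) both carry a run of 12 A bases directly before the consensus. Runs of 12 or more A bases were in the transcripts of 3 of the 70 histone genes and in 4.07% of all transcripts. The other was Hist1h2ac, whose longest run is 15 bases and lies elsewhere in its transcripts, and it had 19 UMIs in histone-high cells. Hist1h1e has runs of at most 6 A bases, and Hist1h2ae of at most 8. The part of such runs in the UMI counts was not tested. The reading frames of Hist1h2ao and Hist1h2ap are identical over 393 bases, and their transcripts share an exact stretch of 452 bases. No source used here says how the counting assigned reads that match both, and the split of UMIs between these 2 genes is uncertain. Over 14 other H2A genes with a frame of the same length, identity to Hist1h2ao was at least 83.5%.

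Promoters are shown for Hist1h2ao and Hist1h1e, the core and the linker histone gene with the most UMIs in histone-high cells. Each runs from 250 bases before to 50 bases after the RefSeq start (GRCm38.p6), and capitals mark 3 short motifs, searched on both strands, whose letters and shares follow. The first is of H2ac23, the RefSeq name for Hist1h2ao, at chr13:21810117-21810416, plus strand. The second is of H1f4, the RefSeq name for Hist1h1e, at chr13:23622509-23622808, minus strand.
Hist1h2ao: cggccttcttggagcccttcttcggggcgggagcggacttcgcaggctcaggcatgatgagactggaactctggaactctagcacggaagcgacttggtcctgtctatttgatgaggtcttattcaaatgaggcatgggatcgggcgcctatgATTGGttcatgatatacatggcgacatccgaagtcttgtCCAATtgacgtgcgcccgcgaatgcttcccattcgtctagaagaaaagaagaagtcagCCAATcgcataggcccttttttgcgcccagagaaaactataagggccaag
Hist1h1e: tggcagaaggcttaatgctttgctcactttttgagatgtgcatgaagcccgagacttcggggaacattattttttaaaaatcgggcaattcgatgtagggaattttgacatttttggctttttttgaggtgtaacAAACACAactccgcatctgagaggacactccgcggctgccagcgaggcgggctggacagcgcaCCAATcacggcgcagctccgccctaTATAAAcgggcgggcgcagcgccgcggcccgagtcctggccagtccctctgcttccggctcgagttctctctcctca

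CCAAT, the box bound by the factor NF-Y, stood in 51 of 60 histone promoters (85%) and in 37.4% of all 32851 promoters of this length. TATAAA, the letters of the TATA box, stood in 35 of 60 histone promoters (58.3%), against 13.6% of all. AAACACA, known from H1 promoters, stood in 9 of 60 (15%), against 7.18% of all. In the Hist1h1e promoter AAACACA lies 115 bases, CCAAT 52 bases and TATAAA 27 bases before the start. The printed Hist1h2ao promoter holds CCAAT 58 bases before the RefSeq start and again at that start itself. It holds the reverse complement of CCAAT 97 bases before the RefSeq start, and no TATAAA. The GENCODE transcript of Hist1h2ao begins downstream of this window, at chr13:21810465, so the bases just before that start were not searched. A match is a description of the letters, and says nothing on binding.

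The markers named for these cells were present. Of the markers Hist1h2ao, Hist1h1e, Hist1h1b, Hist1h2ap and Hist1h1a, at least 2 had a UMI in 353 of 384 histone-high cells (91.93%) and in 25 of 1920 histone-low cells (1.302%), and at least 3 in 271 and 1 of these cells. Histone-high cells held a median of 22 histone UMIs (range 7 to 94) and histone-low cells a median of 0 (range 0 to 6). Histone genes made up 0.7737% of the UMIs of histone-high cells and 0.01818% of those of histone-low cells. The 60 wells listed as empty held 801 UMIs and 0 histone UMIs, which allows a share of up to 0.3745%. The shares formed a continuous slope with no gap at the boundary. The lowest share inside was 0.6021% (31 of 5149 UMIs), and the highest outside was 0.6016% (34 of 5652 UMIs). Within 0.1 points of the boundary lay 145 histone-high cells and 171 cells just outside. Histone-high is therefore a range of a measure and not a cell type of its own, and 1323 kept cells (34.45%) had no histone UMI.

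**Figure D1:**
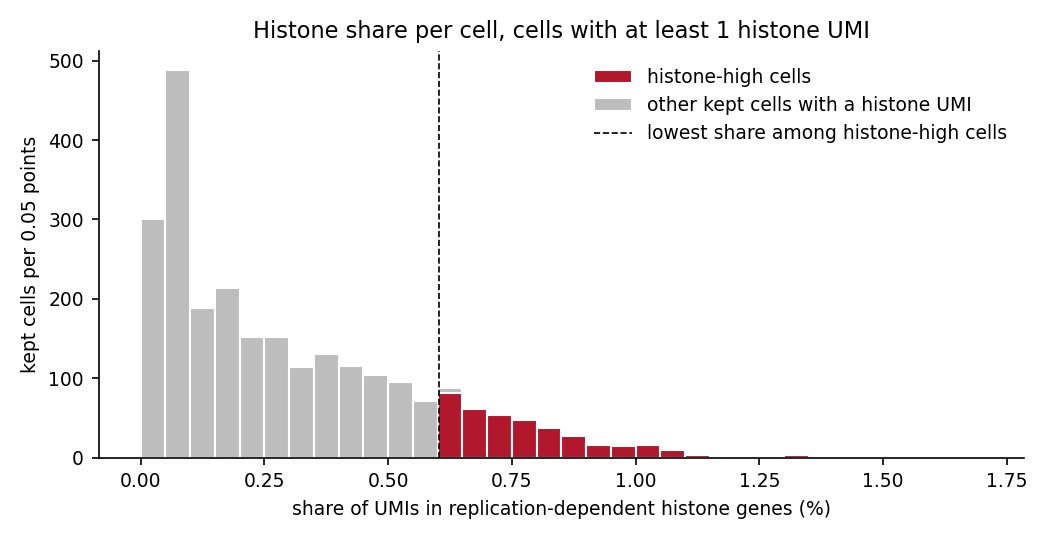
Kept cells by share of UMIs in replication-dependent histone genes, in bins of 0.05 points, for cells with at least 1 histone UMI (the other 1323 kept cells are not drawn). Red bars are the 384 histone-high cells and the dashed line is their lowest share, 0.6021%, which falls on a continuous slope.

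Linker histones made up 22.07% of the histone UMIs of histone-high cells. Hist1h1e (H1.4) had a median of 726 CPM (UMIs scaled to the same total per library) over 15 libraries of histone-high cells (range 271 to 1234), against 24.5 CPM (3.69 to 52.2) in histone-low cells. Hist1h1b (H1.5) stood at 483.8 CPM (223.5 to 844) in histone-high cells, against 6.33 CPM (0 to 20.9) in histone-low cells. Hist1h1c (H1.2), Hist1h1a (H1.1) and Hist1h1d (H1.3) had medians of 178.1, 139 and 137 CPM in histone-high cells and 10.4, 3.06 and 3.44 CPM in histone-low cells. For each of these linker genes, all 15 libraries of histone-high cells lay above all those of histone-low cells. A linker UMI was present in 342 histone-high cells (89.06%) and in none of the other 42.

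Core histone UMIs came mostly from H2A, at 71.55% of the histone UMIs of histone-high cells. Hist1h2ao alone gave 5628 of 9416 histone UMIs (59.77%; 44.91% to 68.8% over libraries) and was present in 382 of 384 histone-high cells, against 226 of 1920 histone-low cells. Its level had a median of 4550 CPM (3429 to 5725) in histone-high cells, against 56.3 CPM (34.6 to 90.1) in histone-low cells. Hist1h2ap had 288.8 CPM (182.9 to 467.6) in histone-high cells, against 0 CPM (0 to 5.77) in histone-low cells, and Hist1h2ae 164.4 CPM (77.9 to 297.2) against 0 CPM (0 to 12.7). The H4 genes Hist1h4d and Hist1h4i stood at 114.3 and 85.7 CPM in histone-high cells, against 3.603 and 13.3 CPM in histone-low cells. H4 as a class gave 3.70% of histone UMIs in histone-high cells, H2B 1.65% and H3 1.04%, so the 4 core histones were counted very unequally. These are counts of 3′ tags and not levels per length, and no order of mRNA abundance is drawn from them.

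Hist1h2bc, an H2B gene, did not follow the others. It had 49 UMIs in 14 histone-high cells (3.646%, 95% exact binomial interval 2.007% to 6.041%) and 62 UMIs in 57 histone-low cells (2.969%, 2.256% to 3.829%). Its level overlapped between the classes, with a median of 9.23 CPM (0 to 266.9) in histone-high cells and 15.5 CPM (6.30 to 44.1) in histone-low cells. Its mean over libraries ran the other way, at 39.9 ± 70.9 CPM in histone-high cells and 16.1 ± 9.30 CPM in histone-low cells (SD, n = 15 each). Of the 15 histone genes with the most UMIs, the other 2 whose libraries overlapped were Hist1h2af and Hist2h2ac, both at low counts. A set of 7 histone genes known also for polyadenylated transcripts, Hist1h2bc among them, gave 5.193% of histone UMIs in histone-high cells and 28.12% in histone-low cells. Intervals here and below cover counting error only.

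**Figure D2:**
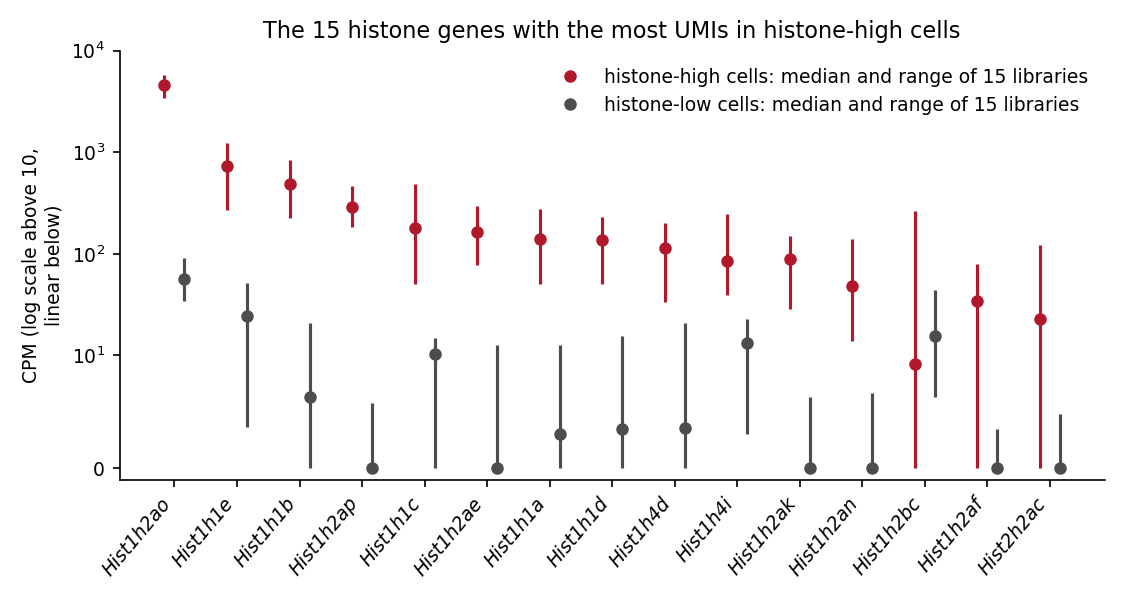
CPM of the 15 histone genes with the most UMIs in histone-high cells (red, left of each pair) and histone-low cells (grey, right). Points are medians and lines the range over 15 libraries, on a scale that is logarithmic above 10 CPM and linear below; the lines overlap for Hist1h2bc, Hist1h2af and Hist2h2ac alone.

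The histone-high share of kept cells was 4.639% (library 2, 9 cells) to 16.96% (library 15, 39 cells), with a median of 9.419%. Library 2 had an exact 95% binomial interval of 2.143% to 8.624% and library 15 one of 12.34% to 22.44%, which do not overlap. The 9 libraries of sequencing batch SB341 gave 4.639% to 13.57% and the 6 of SB343 gave 7.265% to 16.96%, so the batches overlapped under this ranking. Library 1 has no listed batch and gave 8.178%. With Hist1h2ao left out of the ranking, the share was 2.893% to 21.3% over libraries and the batches did not overlap. The highest library of SB341 was then library 8, with 23 of 252 kept cells, and the lowest of SB343 library 13, with 21 of 202. What sets the batches apart was not tested. With no genotype or mouse per library, these shares were not compared between groups. Library 2 held under 10 histone-high cells and entered no fit.

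**Figure D3:**
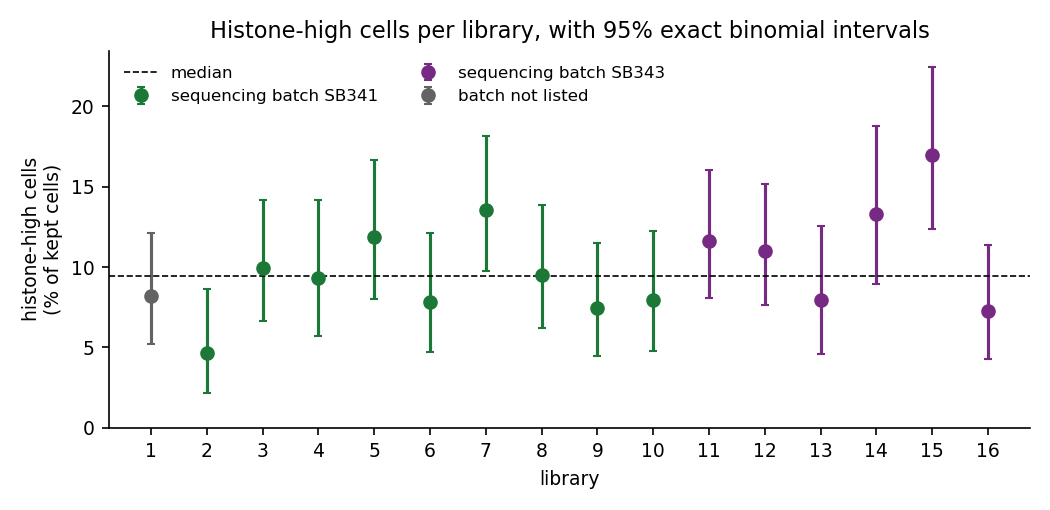
Histone-high cells as a percentage of kept cells in each of the 16 libraries, with 95% exact binomial intervals, coloured by sequencing batch; the dashed line is the median, 9.419%. Library 2 is lowest at 4.639% and library 15 highest at 16.96%.

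The libraries held 521435 to 822534 UMIs and 194 to 291 kept cells, and no 2 libraries shared a well barcode. Libraries also stood apart in Nfkbiz, an mRNA known as a Regnase-1 target. In kept cells, libraries 1 to 8 had 0 to 4 of its UMIs and libraries 9 to 16 had 11 to 31. Results are therefore also given within each of these sets. The labels do not say whether the sets match groups of the study, and what sets them apart was not tested. Histone-high cells were deeper, with library medians of 1820 to 3847 UMIs per cell, against 1552 to 2078 in histone-low cells, and higher in 15 of 15 libraries. The share is defined over UMIs, and ranking on cells thinned to 1000 UMIs each kept 279 of the 384 histone-high cells (72.66%). Sums of thinned cells, also given below, keep the classes chosen at full depth. They leave fewer genes to fit, 782 against 2273 in the comparison with histone-low cells. Their counts therefore do not give the part of depth in the results, which was not tested.

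The sort markers were present in both classes. Kit, the stem cell factor receptor, had a UMI in 35.94% of histone-high cells (interval 31.13% to 40.96%) and 27.08% of histone-low cells (25.11% to 29.13%), at the depths above. Ly6a, which encodes Sca1, had one in 33.07% of histone-high cells (28.38% to 38.03%) and 32.55% of histone-low cells (30.46% to 34.7%). Scaled for depth, the sum of Kit and Ly6a was 230.4 to 460.8 CPM over libraries (median 379.9) in histone-high cells. In histone-low cells it was 324.7 to 547.1 CPM (median 425.4), and histone-high cells were higher in 4 of 15 libraries. Markers of other cells were summed over fixed lists. Of 15 mature neutrophil and macrophage genes, 8 had a UMI in histone-high cells and Lcn2, Camp, Ltf and C1qa had none; the sum was 0 to 158.1 CPM over libraries in histone-high cells and 10.5 to 178.1 CPM in histone-low cells. Of 10 mature B genes, 3 had a UMI in histone-high cells (61 UMIs in all), and Cd79a and Ms4a1 had none. Their sum was 9.30 to 227.1 CPM in histone-high cells and 20.9 to 64.4 CPM in histone-low cells. Of 12 T and NK genes, 4 had a UMI in histone-high cells (193 UMIs in all), and Cd3d, Cd3e and Cd3g had none. Their sum was 56.2 to 336 CPM (median 152.5) in histone-high cells and 91.2 to 254.8 CPM (median 174.6) in histone-low cells. Of 10 endothelial and stromal genes, 5 had a UMI in histone-high cells (72 UMIs in all), and Cdh5 and Kdr had none. Their sum was 14.4 to 170.6 CPM in histone-high cells and 31.6 to 132.4 CPM in histone-low cells. The erythroid list had the highest sums, at 415.9 to 1637 CPM (median 673.5) in histone-high cells and 543.2 to 1710 CPM (median 791.8) in histone-low cells. Of its 9 genes in the data, 8 had a UMI in histone-high cells (952 UMIs in all), and Alas2 had none.

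Transcripts of 3 H2A genes rose with linker histone transcripts in a test that kept H1 and core histones apart. Cells were ranked by the share of Hist1h1 genes alone, and the top 10% were compared with the lowest-ranked 1920 in 12 libraries with at least 10 cells of each. More cells than these had no linker UMI, and ties were broken by library order, so libraries 1 to 3 gave no linker-low cells. With all cells that lacked a linker UMI as the low class, the log2 fold change of Hist1h2ao was 2.85 ± 0.06 (edgeR). The 3 core histone genes with enough counts to be fitted were Hist1h2ao, Hist1h2ap and Hist1h2ae, all of H2A, and no H2B, H3 or H4 gene was among them. All 3 were higher, where 250 of all 3081 genes fitted were called (8.11%), 129 higher (4.19%) and 121 lower (3.93%). A gene passes the filter on counts more easily where it is high, so the count speaks of these 3 alone. Without that filter, 55 core histone genes were fitted, of which 13 were called higher and 1, Hist1h2bc, lower. Hist1h2ao had 2323, 2889 and 4288 CPM (lowest, median and highest library) in linker-high cells, against 267.5, 454 and 686.9 CPM in linker-low cells. The libraries did not overlap, as for 0.389% of all genes fitted, and the log2 fold change was 2.77 ± 0.06 (SE; adjusted p = 4.48e-56, edgeR's quasi-likelihood test, higher in 12 of 12 libraries). Hist1h2ap had 94.95, 207.4 and 360.3 CPM in linker-high cells, against 12.6, 35.1 and 55.3 CPM in linker-low cells, a log2 fold change of 2.59 ± 0.21 (adjusted p = 1.74e-17, edgeR). Hist1h2ae gave 2.59 ± 0.27 (adjusted p = 5.81e-12, edgeR).

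The log2 fold change of Hist1h2ao was 2.79 ± 0.08 within batch SB341 and 2.77 ± 0.08 within SB343, and 2.80 ± 0.09 in libraries 1 to 8 and 2.75 ± 0.07 in libraries 9 to 16. With cells thinned before ranking it was 1.73 ± 0.05. The H4 gene Hist1h4i entered some of the other fits and was not called, at 1.18 within SB341 (adjusted p = 0.0955, edgeR), 1.24 in libraries 1 to 8 (adjusted p = 0.141, edgeR) and 0.61 with thinned ranking (adjusted p = 0.295, edgeR). Hist1h4d was called higher within SB343, at 1.98 ± 0.33 (adjusted p = 3.06e-06, edgeR). Hist1h2bc, of H2B, had a negative log2 fold change wherever it entered. It fell by 1.86 within SB343 (adjusted p = 0.00051, edgeR), by 1.12 with a minimum of 500 UMIs per cell (adjusted p = 0.00332, edgeR) and by 1.61 without a filter on low counts (adjusted p = 2.13e-05, edgeR). It was not called in libraries 1 to 8 (-0.91, adjusted p = 0.541, edgeR) or with thinned ranking (-1.01, adjusted p = 0.0648, edgeR). Gm44346, a gene model on the plus strand (chr13:21786875-21787015) inside Hist1h2an, which is on the minus strand (chr13:21786826-21787218), also rose, by 2.50 ± 0.25 on the log2 scale. Without knowledge of the strand used in counting, its reads cannot be told from those of Hist1h2an.

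Beyond the histone genes, histone-high cells had higher transcript levels of most fitted genes of mitosis and some of DNA synthesis and nucleotide supply than histone-low cells, and lower levels of several genes of neutrophil and monocyte progenitors. Of 2273 genes fitted over 15 libraries, 173 (7.61%) were higher and 154 (6.78%) lower, 14.4% in all, at an adjusted p under 0.05 (edgeR's quasi-likelihood test). Histone genes were left out of the fit and of the library sizes, so levels are CPM of the other UMIs. Genes that vary together with histone transcripts differ between such classes by the way these were made, and the p-values measure the spread between libraries, which may share mice. Within batch SB341 102 genes were higher and 62 lower, and within SB343 81 and 35. In libraries 1 to 8 the counts were 111 higher and 72 lower, and in libraries 9 to 16 90 and 59. With each cell thinned to 1000 UMIs, 50 were higher and 42 lower of 782 fitted.

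Mitosis genes were the largest group. Of 61 on the list, 35 were fitted, and 29 rose and none fell (adjusted p under 0.05, edgeR), with a median log2 fold change of 0.96, against -0.018 over all genes fitted. A member passes the filter on counts more easily where it is high, so this count speaks of the 35 and not of the list. The same limit holds for every list count below. Mki67, which coats mitotic chromosomes and marks dividing cells, had 359, 537.7 and 875.3 CPM (lowest, median and highest library) in histone-high cells, against 79.6, 136.8 and 255.1 CPM in histone-low cells. Its libraries did not overlap, which held for 13 of 2273 genes (0.572%), and its log2 fold change was 1.92 ± 0.11 (adjusted p = 1.33e-27, edgeR). Top2a, the topoisomerase that untangles replicated DNA, had 539.9, 865 and 1004 CPM in histone-high cells, against 165.4, 250.1 and 350.4 CPM in histone-low cells, again with no overlap (1.68 ± 0.08, adjusted p = 7.84e-33, edgeR). Hmgb2, an abundant chromatin protein, stood at 852.3, 1237 and 1562 CPM in histone-high cells, against 287.9, 473.3 and 583.1 CPM in histone-low cells (1.40 ± 0.06, adjusted p = 8.07e-34, edgeR). These 3 were higher in 15 of 15 libraries.

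Among genes of the spindle and of cell division, Prc1, which bundles spindle microtubules, rose by 1.81 ± 0.20 on the log2 scale. Aurkb, the kinase of the chromosomal passenger complex, rose by 1.64 ± 0.19 and its partner Birc5 by 1.47 ± 0.16. Of the kinetochore subunits, Spc25 rose by 1.87 ± 0.19 and Spc24 by 1.53 ± 0.17, and the condensin subunit Ncapg by 1.57 ± 0.21. The largest fold change of the genes named by the rule was that of Pbk, a mitotic kinase, at 2.26 ± 0.20, with 184.4 CPM (86.7 to 374.3) in histone-high cells and 36.6 CPM (18.1 to 103.5) in histone-low cells. Fbxo5, which holds back the anaphase-promoting complex during S and G2 phase, followed at 2.10 ± 0.22. Of the cyclins and their kinases, Ccna2, the cyclin of S and G2 phase, had 168.4, 316.8 and 420 CPM in histone-high cells, against 30.6, 115.4 and 265.5 CPM in histone-low cells (1.37 ± 0.14, adjusted p = 1.15e-13, edgeR). Its partner Cdk1 rose by 1.19 ± 0.15. Ccnd2, a cyclin of G1 phase, fell by 0.54 ± 0.11, with 262.4 CPM (124.8 to 502.7) in histone-high cells and 383 CPM (256.5 to 450) in histone-low cells, so its libraries overlapped.

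The mitosis list gave 26 higher genes of 37 fitted within SB341 and 22 of 35 within SB343, and 29 of 38 in libraries 1 to 8 and 22 of 33 in libraries 9 to 16. With thinned cells it gave 10 of 12, with Hist1h2ao left out of the ranking 28 of 33, and with a minimum of 2000 UMIs per cell 14 of 22. None of its fitted genes was called lower in any of these fits.

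Licensing, an early step of replication, loads the Mcm2 to Mcm7 helicase on origins before S phase, and of 18 such genes 6 were fitted, 0 rose and 1 fell. That was Mcm2, at 117.6 CPM (51.0 to 290) in histone-high cells and 180.7 CPM (114.7 to 242.4) in histone-low cells, with a log2 fold change of -0.53 ± 0.16 (adjusted p = 0.0135, edgeR); the libraries overlapped. Mcm6 had 248.7, 392.9 and 576 CPM in histone-high cells and 324.4, 398.3 and 487.1 CPM in histone-low cells, and Mcm3 221.8 CPM at the median in histone-high cells and 225.3 CPM in histone-low cells. Neither passed the test, which does not show that they were alike.

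Of 22 DNA synthesis genes fitted, 7 rose and none fell; the other 15 did not pass. Pcna, the sliding clamp of DNA polymerase, had 386.6, 688.1 and 936.2 CPM in histone-high cells, against 329, 454 and 546.6 CPM in histone-low cells (0.52 ± 0.08, adjusted p = 7.35e-07, edgeR, higher in 13 of 15 libraries). Rfc5, a subunit of the clamp loader, rose by 0.91 ± 0.17, the flap nuclease Fen1 by 0.80 ± 0.16 and the maintenance methyltransferase Dnmt1 by 0.72 ± 0.13. The count was 4 within SB341 and within SB343, and 2 of 3 with thinned cells. The others of the 7 were Top2a, the primase Prim1 and the ligase Lig1. The call of Prim1 was lost without any 1 of libraries 1, 3, 5, 9, 10, 13, 14 and 15, and that of Lig1 without any 1 of libraries 3, 6, 7, 9, 10, 11, 12 and 13.

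In nucleotide supply, 6 of 17 fitted genes rose and none fell. Tyms, which makes thymidylate, had 117.6, 204.7 and 329.4 CPM in histone-high cells, against 45.5, 75.7 and 132.5 CPM in histone-low cells (1.46 ± 0.16, adjusted p = 2.44e-12, edgeR, higher in 15 of 15 libraries). Thymidine kinase Tk1 did not overlap between the classes, with 158.1 CPM (102 to 260) in histone-high cells and 51.6 CPM (19.0 to 75.9) in histone-low cells (1.66 ± 0.19). The ribonucleotide reductase subunits Rrm1 and Rrm2 rose by 0.95 ± 0.12 and 0.96 ± 0.19, and the dUTPase gene Dut by 0.51 ± 0.10. The sixth was the kinase gene Dtymk, whose call was lost without any 1 of 11 of the 15 libraries. Within each batch 4 rose, and with thinned cells 2 of 5.

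Of the histone variants and related chromatin proteins, 8 of 12 fitted genes rose and 1 fell. H2afx, which encodes the variant phosphorylated at DNA breaks, had 268.8, 395.3 and 597.1 CPM in histone-high cells, against 46.0, 162 and 212 CPM in histone-low cells, with no overlap (1.46 ± 0.12, adjusted p = 1.77e-17, edgeR). H2afv and H2afz, both genes of the H2A.Z variant, rose by 0.87 ± 0.10 and 0.79 ± 0.09, and H3f3b, 1 of the genes of H3.3, by 0.63 ± 0.07. The other H3.3 gene, H3f3a, had 737.7 CPM at the median in histone-high cells and 688.3 CPM in histone-low cells and did not pass (adjusted p = 0.29, edgeR). Of the genes of this list fitted, 6 rose and 1 fell within SB341, and 5 rose and none fell within SB343. H2afy, which encodes macroH2A, fell by 0.21 ± 0.05, with 1838 CPM (1516 to 2320) in histone-high cells and 2117 CPM (1813 to 2463) in histone-low cells. Histone chaperone and acidic carrier genes rose in 5 of 16 cases and fell in 1. Rbbp4, a subunit of the chromatin assembly complex CAF-1, rose by 0.51 ± 0.11, Anp32b by 0.41 ± 0.07 and Hjurp, the carrier of the centromere variant, by 0.55 ± 0.16. Npm1 fell by 0.18 ± 0.05. Of the factors that process or degrade histone mRNA, 3 of 8 fitted rose: the RNase gene Eri1, which binds the stem-loop, by 0.62 ± 0.20, and the shared splicing factor genes Snrpe and Snrpd3. Each of these 3 calls was lost without at least 1 library, that of Eri1 without library 7 or library 12.

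Genes lower in histone-high cells included several of neutrophil and monocyte progenitors. Of 7 such genes fitted, 6 fell and none rose. Plac8, a gene of early myeloid and lymphoid progenitors, had 743.9, 1159 and 1636 CPM in histone-high cells, against 1200, 1729 and 2184 CPM in histone-low cells, lower in 15 of 15 libraries (-0.61 ± 0.06, adjusted p = 1.33e-14, edgeR). Mpo, myeloperoxidase of neutrophil granules, had 148.8, 313.6 and 707.1 CPM in histone-high cells, against 158.8, 468.4 and 1027 CPM in histone-low cells, lower in 11 of 15 (-0.46 ± 0.10, adjusted p = 0.000176, edgeR). The ranges of both overlapped. Tyrobp, a signalling adaptor of myeloid and NK cells, fell by 1.01 ± 0.20 and Ctsg, a granule protease, by 0.64 ± 0.19. The last 2 were Igfbp4 and the granule protease gene Prtn3, whose call was lost without any 1 of libraries 3, 4, 8, 11, 12 and 14.

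This count moved with the settings that bear on depth and on the libraries. It was 2 of 7 when cells were thinned before ranking and 1 of 5 when they were thinned before summing. It was 1 of 7 in libraries 1 to 8 and 6 of 8 in libraries 9 to 16, 3 of 7 without Hist1h2ao in the ranking, and 3 of 7 without the library as a block. Of 11 lymphoid genes 3 fell, among them the cytokine receptor gene Flt3 (-0.57 ± 0.17), whose call was lost without library 3; without single libraries the count was 1 to 4. It was 0 without the library as a block, within SB343, in libraries 9 to 16 and with thinned sums. Of 8 stem cell genes 1 fell, Ifitm1, with 264.8 CPM (184.4 to 559.9) in histone-high cells and 464.8 CPM (355.2 to 587.2) in histone-low cells (-0.78 ± 0.10, adjusted p = 9.41e-10, edgeR). The stem cell count was 1 to 3 without single libraries and 3 of 8 with thinned ranking. The stem cell factor Hlf had 112.7 CPM at the median in histone-high cells and 172 CPM in histone-low cells and did not pass (adjusted p = 0.154, edgeR).

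Other genes with the largest decreases were Aldoa, a glycolytic aldolase, and Samhd1, a dNTP hydrolase. Aldoa had 97.1 CPM (33.6 to 300) in histone-high cells and 247.5 CPM (150 to 357.8) in histone-low cells (-1.05 ± 0.14, adjusted p = 5.67e-09, edgeR, lower in 14 of 15 libraries). It was the only 1 of 8 fitted glycolysis genes that passed. Samhd1 had 51.2 CPM (0 to 89.3) in histone-high cells and 99.0 CPM (26.1 to 154.4) in histone-low cells (-1.01 ± 0.23, adjusted p = 0.000517, edgeR). Myc, a transcription factor of growth, fell by 0.71 ± 0.13, with 173 CPM (16.8 to 258.2) in histone-high cells and 278.8 CPM (189.7 to 347.7) in histone-low cells. All 3 overlapped between the classes. None of 5 fitted interferon response genes was called in either direction.

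**Figure D4:**
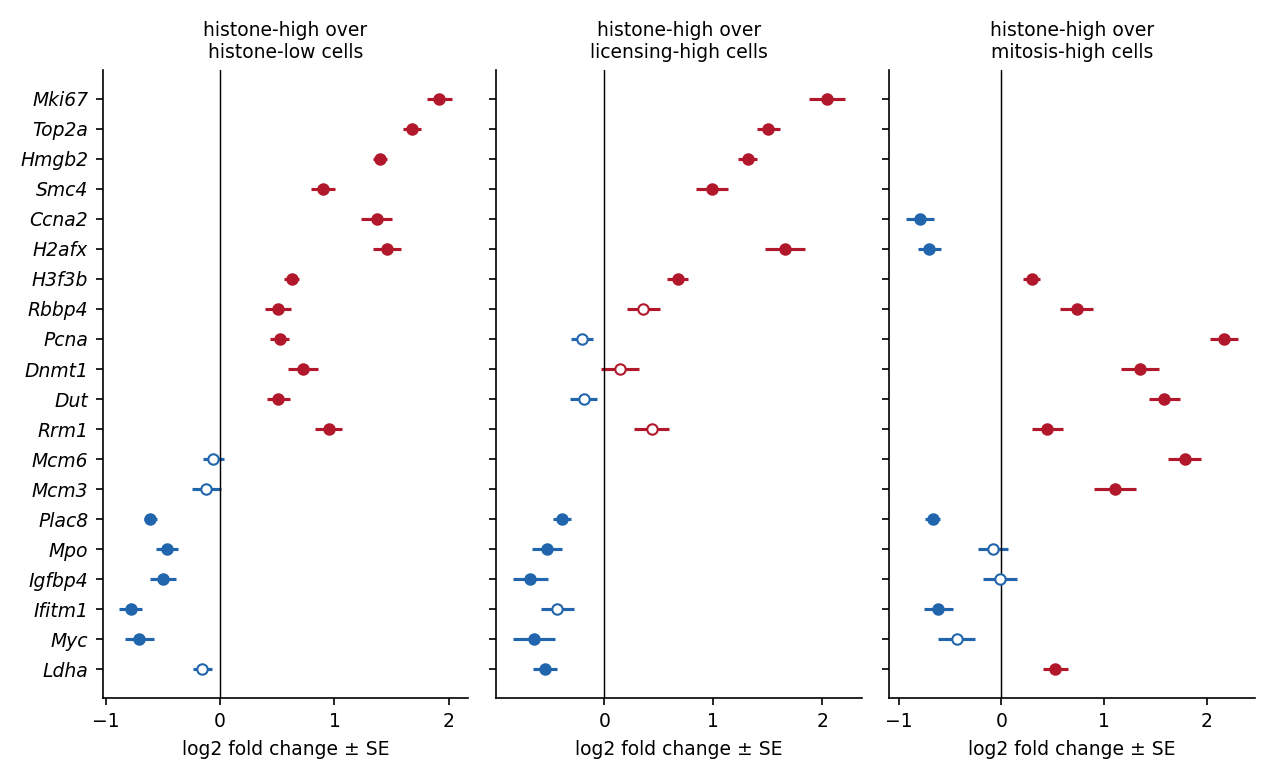
Log2 fold change ± SE (edgeR) of histone-high cells over histone-low, licensing-high and mitosis-high cells, for genes named in the text; positive is higher in histone-high cells. Filled points had an adjusted p under 0.05; genes that chose a comparison class or were not fitted have no point. Mki67, Top2a, Hmgb2 and H2afx are raised over histone-low and licensing-high cells, while Pcna, Mcm6 and Dut are raised over mitosis-high cells, where Ccna2 and H2afx are lower.

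To place histone-high cells among other cycling cells, they were set against the 384 cells with the largest share of the licensing list and, separately, the 384 with the largest share of the mitosis list. Of the histone-high cells, 37 (9.635%) were also licensing-high, 60 (15.62%) mitosis-high, 1 both and 288 (75%) neither. Of histone-low cells, 12.45% were licensing-high and 5.781% mitosis-high. Cells in both classes of a pair were left out of its fit. The 3 comparisons share the histone-high cells, so they are not independent.

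Against licensing-high cells, histone-high cells had more transcripts of most fitted mitosis genes, and some genes of other lists were also called. Over 15 libraries, 53 of 707 genes fitted (7.5%) were called, 32 higher (4.53%) and 21 lower (2.97%). Mki67 had 360.9, 546 and 944.7 CPM in histone-high cells, against 24.4, 103.5 and 482.9 CPM in licensing-high cells (2.05 ± 0.16, adjusted p = 8.24e-21, edgeR, higher in 15 of 15). Top2a had 877.7 CPM (553.3 to 1040) in histone-high cells and 294.7 CPM (217.6 to 579.5) in licensing-high cells (1.51 ± 0.11). Hmgb2 was 1 of 2 genes (0.283%) whose libraries did not overlap, with 870.1, 1305 and 1564 CPM in histone-high cells against 286, 525.6 and 753.4 CPM in licensing-high cells (1.32 ± 0.09). Of 10 mitosis genes fitted from the list of 61, 9 rose and none fell, with the same limit from the filter on counts. Of 9 fitted genes of histone variants and related chromatin proteins, 4 rose and 1 fell, and of 10 histone chaperone genes 2 rose and 1 fell. Of 5 neutrophil and monocyte genes fitted, 3 fell and none rose. That count was 2 to 4 without single libraries and 0 of 5 in libraries 1 to 8. H2afx rose by 1.66 ± 0.18, H2afv by 0.96 ± 0.15, and the tubulin genes Tubb4b, Tubb5 and Tuba1b by 1.21 ± 0.13, 0.84 ± 0.08 and 0.78 ± 0.07.

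DNA synthesis genes other than Top2a, and nucleotide supply genes, gave no call against licensing-high cells: 1 of 5 and 0 of 6 fitted. Without single libraries 0 to 2 nucleotide supply genes rose and 0 to 2 fell. Within SB341 2 of 7 of them fell, and within SB343 1 of 6 rose. The genes called lower in this comparison included Cdca7, a Myc target, with 190 CPM (67.3 to 236) in histone-high cells and 311.5 CPM (73.2 to 374.8) in licensing-high cells (-0.73 ± 0.18, adjusted p = 0.00265, edgeR). Ldha, lactate dehydrogenase, fell by 0.55 ± 0.11 and was lower in 15 of 15 libraries. Srm, which makes the polyamine spermidine, fell by 0.65 ± 0.17. Mpo fell by 0.53 ± 0.14, a call lost without library 10, and Myc by 0.64 ± 0.19, a call lost without library 6 or library 9. Median UMIs per cell were 2923.5 in histone-high cells and 1957 in licensing-high cells, and with cells thinned to 1000 UMIs 17 genes were higher and 6 lower of 276 fitted. Within SB343 25 were higher and 4 lower.

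Against mitosis-high cells the few replication genes that could be fitted were higher. Of 820 genes fitted over 15 libraries, 175 (21.3%) were called, 92 higher (11.2%) and 83 lower (10.1%). Pcna had 421.3, 796.6 and 1088 CPM in histone-high cells, against 0, 137.1 and 243.4 CPM in mitosis-high cells, with no overlap, as for 6 of 820 genes (0.732%) (2.17 ± 0.14, adjusted p = 2.42e-21, edgeR). Mcm6 had 308.7, 409.9 and 669.7 CPM in histone-high cells, against 54.1, 102.5 and 181.5 CPM in mitosis-high cells, also apart (1.79 ± 0.16, adjusted p = 1.19e-14, edgeR). Dut stood at 444.9 CPM (292.8 to 767) in histone-high cells and 143.5 CPM (56.0 to 270.3) in mitosis-high cells (1.59 ± 0.16), and Dnmt1 at 267.6 CPM and 100.2 CPM at the median (1.35 ± 0.19). Both licensing genes fitted, all 3 DNA synthesis genes and all 5 nucleotide supply genes rose. These lists hold 18, 38 and 22 genes. A member passes the filter on counts more easily where it is high, so the counts speak of the fitted genes alone. Without single libraries 3 to 6 nucleotide supply genes rose: the call of Nme1 was lost without any 1 of libraries 1, 3, 5, 6, 8, 9, 12, 13 and 15, and that of Rrm1 without any 1 of libraries 4, 6, 11, 12, 13, 14 and 15. Without the library as a block 3 of these 5 and 2 of the 3 DNA synthesis genes were called. With cells thinned before ranking, 1 of 1 DNA synthesis gene and 4 of 5 nucleotide supply genes rose, and with a minimum of 2000 UMIs 17 genes were called in all, 5 of them higher.

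Lower genes against mitosis-high cells included 3 of 5 lymphoid genes fitted and both megakaryocyte and erythroid genes fitted. The call of Mef2c, 1 of the 3, was lost without any 1 of libraries 3, 5, 7, 8, 9, 10, 13 and 15, and that of Apoe, 1 of the last 2, without library 11. Without single libraries the lymphoid count was 2 to 5, and without the library as a block it was 1. Tuba1c, an alpha-tubulin gene, had 62.0, 131.8 and 309.3 CPM in histone-high cells, against 360, 444.3 and 717.5 CPM in mitosis-high cells (-1.83 ± 0.15, adjusted p = 1.08e-15, edgeR, lower in 15 of 15). Lockd, a non-coding RNA, fell by 1.39 ± 0.19 and also did not overlap. Ccna2 fell by 0.80 ± 0.14, with 245.2 CPM (153.2 to 423.2) in histone-high cells and 414 CPM (309.4 to 559.5) in mitosis-high cells. Of 8 fitted genes of histone variants and related chromatin proteins, 4 rose and 1 fell. The higher ones were H3f3b (0.29 ± 0.08), H2afj, a replication-independent H2A gene (0.67 ± 0.18), H2afz and Hmgn1; the calls of H2afz and Hmgn1 were each lost without any 1 of at least 9 libraries. Within SB341 1 gene of this list rose and 1 fell, and within SB343 none rose and 2 fell. H2afx fell by 0.70 ± 0.11, with 429 CPM (132.2 to 537.2) in histone-high cells and 648.6 CPM (429.8 to 779) in mitosis-high cells. Dntt, which adds bases at antigen receptor joints in lymphoid progenitors, had 270.8 CPM (17.5 to 873.4) in histone-high cells and 653.5 CPM (95.2 to 2088) in mitosis-high cells (-1.33 ± 0.14). Car2, a carbonic anhydrase of erythroid progenitors, fell by 0.68 ± 0.10. The histone-high cells differed in depth less here, with median UMIs of 2923.5 against 2606 in mitosis-high cells. Within SB341 36 genes were higher and 37 lower, and within SB343 42 and 35.

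The lists also varied below the boundary, as a description over bins of histone share, with 16 libraries in each lower bin and 15 for histone-high cells. Mitosis genes summed to a median of 4152 CPM in cells without a histone UMI, 7094 CPM at shares up to 0.1%, 8702 CPM up to 0.2%, 10430 CPM up to 0.4%, 10470 CPM up to the boundary and 11100 CPM in histone-high cells. Most of this climb lay below 0.4%. DNA synthesis genes summed to 3304, 3694, 3206, 3922, 4427 and 5080 CPM over the same bins, and their climb began above 0.2%. Licensing genes had 1681 CPM in cells without a histone UMI, 1380 CPM from 0.2% to 0.4% and 1701 CPM in histone-high cells, so they were lowest in the middle bins. Medians of neutrophil and monocyte genes lay between 3941 and 4434 CPM in the bins below the boundary and at 2982 CPM in histone-high cells. Their library ranges overlapped, at 2790 to 5747 CPM in the bin just below the boundary and 1906 to 4076 CPM in histone-high cells. Median UMIs per cell were 1587, 2162, 1879, 2187, 2705 and 2923.5 over these bins, and the part of depth in the bin values was not tested.

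**Figure D5:**
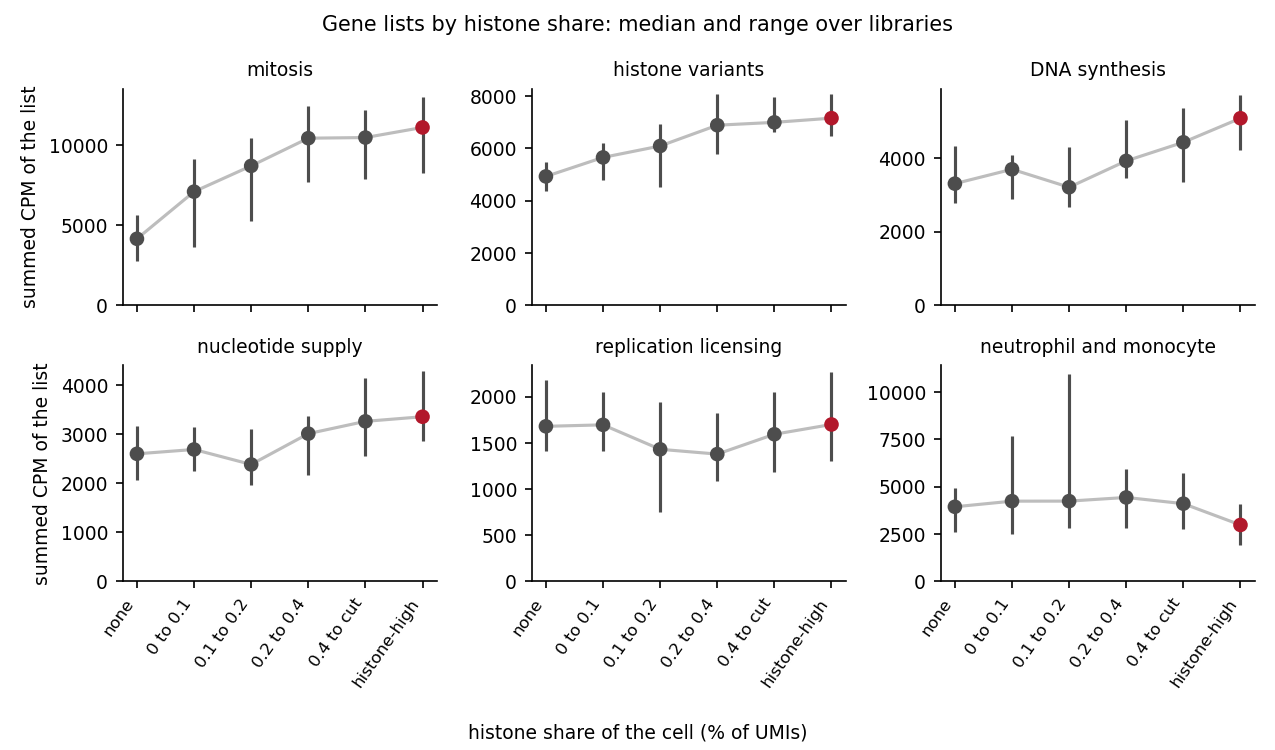
Summed CPM of 6 gene lists in cells grouped by histone share, from cells with no histone UMI (left) to histone-high cells (right, red). Points are medians and lines the range over libraries; the mitosis list climbs from 4152 to 11100 CPM, mostly at low shares, and the licensing list stays between 1380 and 1701 CPM.

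The cells also held more different genes. At 1000 non-histone UMIs per cell, the median number of genes detected was 608 to 662 over 15 libraries of histone-high cells (median 636) and 588 to 641 in histone-low cells (median 617). Histone-high cells had the higher median in 14 libraries and a lower one in 0, and the mean difference was 18.1 ± 13.03 genes (SD; two-sided exact permutation test by sign flips over libraries, p = 0.000122). It was 22.2 genes within SB341 and 8.92 within SB343. It was 8.18 genes with Hist1h2ao left out of the ranking (p = 0.0222, permutation test, higher in 11 and lower in 3 of 14 libraries) and 11.25 genes with a minimum of 2000 UMIs (p = 0.0469, permutation test, higher in 7 and lower in 3 of 10). The mitochondrial share of non-histone UMIs, a common sign of cell quality, was 10.14% (8.60% to 12.2%) in histone-high cells and 10.11% (9.09% to 12.3%) in histone-low cells. The mean difference was -0.318 ± 0.589 points (SD, n = 15; exact permutation test, p = 0.0537), lower in 10 of 15 libraries; without any 1 of libraries 6, 11, 13 and 14 that p was between 0.0104 and 0.0453. With Hist1h2ao left out of the ranking the difference was 0.448 points (p = 0.0195, permutation test), in the other direction. That ranking kept 237 of the 384 cells (61.72%), so the membership rests in large part on this 1 gene.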

How the data were processed

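The authors deposited UMI counts per gene and well, not normalized, for 16 MARS-seq libraries of 384 wells, and a table of position, sequencing batch and number of cells per well. The build is mm10 and a tool named is bcl2fastq 2.15.0.4, per the submitters' processing notes; no source used here names the aligner, counter, annotation or use of strand. Library 1 is absent from the well table and was kept. Of the wells not listed as empty, 2209 had under 1000 UMIs and 35 were over the mitochondrial maximum. Counts were summed per library and class (at least 10 cells) and tested with edgeR 4.0.16 in R 4.3.3: quasi-likelihood F test, TMM, filterByExpr, library as a block since both sums come from the same plate, Benjamini-Hochberg at 0.05. Genes that chose a class were left out of its test and library sizes. On simulated counts for the comparison with histone-low cells, 88 of 100 genes changed 2-fold were recovered, with 4 of 2073 unchanged genes called; against licensing-high cells these were 77 of 100 and 12 of 507, against mitosis-high cells 86 of 100 and 13 of 620, and in the linker ranking 85 of 100 and 12 of 2881. No doublet caller was run, since the well table lists 0 or 1 cell per well. Named genes are, per comparison, up to 12 called genes with the largest and 12 with the smallest fold change (same direction in 80% of libraries), the 5 most abundant and all called members of each list, and the 15 histone genes with most UMIs. Members, lists and comparison classes were chosen with earlier results of these data known. Sequences come from GENCODE M21 transcripts and RefSeq promoters. No record says whether libraries come from separate mice, so p-values measure the spread between plates.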

Additional observations from a re-analysis of the deposited data

How the results depend on the processing

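Counts of called genes, given against histone-low, licensing-high and mitosis-high cells (327, 53 and 175), moved with many settings. A minimum of 2000 UMIs gave 82, 22 and 17, the top 5% gave 130, 14 and 28, and sums of cells thinned to 1000 UMIs gave 92, 23 and 28. Without a filter on low counts 673 genes were called against histone-low cells, where the median log2 fold change of all genes was -0.33, and 107 against licensing-high cells. Without the replicate block the counts were 179, 32 and 91. Both sums of a pair come from the same plate, and 133 of 168 calls of named genes were kept. DESeq2 gave 34 against licensing-high and 99 against mitosis-high cells. A minimum of 500 UMIs gave 81 against licensing-high cells. Within SB341 there were 164 against histone-low and 73 against mitosis-high cells, and within SB343 116, 29 and 77. In libraries 1 to 8 there were 183 against histone-low and 64 against mitosis-high cells, and in libraries 9 to 16 149, 27 and 89. Ranking on thinned cells gave 103 against mitosis-high cells, as did ranking without Hist1h2ao. The splits by library number, the ranking without Hist1h2ao and the linker-low class of all cells without a linker UMI were chosen after seeing the data; the last left the 3 core histone calls in place. The cause of these moves was not tested.

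Core histone genes called in linker-ranked cells were 3, 5 within SB343 and with a minimum of 500 UMIs, 14 without a filter, and 1 with a minimum of 2000 UMIs or thinned sums, where 1 was fitted. The mitochondrial difference passed the threshold at -0.449 points with a minimum of 500 UMIs, -0.461 with ranking on thinned cells and -0.478 without the polyadenylated set, and was 0.448 without Hist1h2ao. Leaving out 1 library at a time gave -0.393 to -0.231 points, 16.5 to 19.4 genes per cell, 276 to 320, 41 to 62 and 139 to 169 called genes and 2 to 4 core histone genes. Fold changes turned, without a call, for Cd52 (0.0123 within SB343), Snrpd3 (-0.0222), Cenpa (-0.0123) and Ube2c (-0.0999; the last 3 with a minimum of 2000 UMIs) against histone-low cells. The same held for H2afy (0.035 within SB343 and 0.0337 in libraries 9 to 16) and Hspa5 (0.225 in the top 5%) against licensing-high cells and for Calr (-0.144 with a minimum of 2000 UMIs) against mitosis-high cells. The core histone test rests on the 3 genes with enough UMIs to be fitted.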
